A study of Homo sapiens with 4 samples.

Results

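The genes described here are 48 genes of mitotic entry, the spindle and the kinetochore in DU145 cells, a human prostate cancer cell line. They were chosen by name from a list of cyclins, mitotic kinases, checkpoint, anaphase, kinesin, kinetochore and condensin genes. All 48 stood in each of the 4 tables, among 20474 genes common to the tables, and all 48 reached 1 CPM (read pairs of a gene scaled to a common library total) in at least 1 library, as did 14942 genes in all. The series compared RNA from cells given control siRNA (1 library, labelled wild type), siRNA against PTBP1 (2 libraries, each made with a different siRNA and here called PTBP1 siRNA 1 and 2) and siRNA against DNMT3B-L (1 library). Transfection was with 75 nM siRNA in Lipofectamine RNAimax, and cells were taken after 48 h. PTBP1 encodes an RNA-binding splicing regulator and DNMT3B a DNA methyltransferase. The labels do not explain the letter L. No siRNA was used in more than 1 library, and no source used here says whether the libraries came from separate cultures, so p-values measure only the spread between these libraries.

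Depth was 22332245 to 24088975 read pairs per library. PTBP1 stood at 928 CPM with control siRNA, 268 and 135 CPM with PTBP1 siRNA 1 and 2, and 982 CPM with DNMT3B-L siRNA, so both PTBP1 libraries were below the others. DNMT3B stood at 9.77 CPM with control siRNA, 8.43 and 13.1 CPM with PTBP1 siRNA 1 and 2, and 5.46 CPM with DNMT3B-L siRNA, the lowest of the 4, and these values sum all its transcripts. All 5 epithelial markers (KRT8, KRT18, KRT19, EPCAM and CDH1) were present, with a summed level of 2007 CPM with control siRNA, 1713 and 942 CPM with PTBP1 siRNA 1 and 2, and 1734 CPM with DNMT3B-L siRNA. PTBP1 siRNA 2 therefore had the lowest epithelial sum, and the part of this difference in the mitotic genes was not tested. KRT8 made up most of each sum, at 1444, 1264, 656 and 1209 CPM in the same order. EPCAM was low in level and highest with DNMT3B-L siRNA, at 3.7, 3.7, 2.2 and 11.6 CPM. None of the 4 leukocyte markers stood in all tables, and none of the 3 endothelial markers reached 1 CPM. The 2 fibroblast markers found (of 4) summed to 16.8 to 27.5 CPM.

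Cells enter mitosis when cyclin B and its kinase CDK1 become active, after CDC25 phosphatases have removed inhibitory phosphates from the kinase. Condensin and topoisomerase II then compact and untangle the chromosomes, kinesins and their partners build the spindle, and kinetochores attach the chromosomes to its microtubules. The spindle checkpoint holds back CDC20 and the anaphase-promoting complex until attachment is complete, after which separase cuts the links between sister chromatids. Many genes of these proteins are transcribed late in the cell cycle, through promoters with a cell cycle homology region (CHR) bound by the MuvB complex with MYBL2 or FOXM1, and with CCAAT boxes bound by NF-Y.

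The promoters of the mitotic genes show what the genes share apart from their function. RefSeq promoter windows on GRCh38.p14, from 250 bases before to 50 bases after an annotated start, were found for 41 of the 48 genes (53 windows, as some genes have several starts). Those not matched were AURKA, BIRC5, BUB3, FOXM1, TPX2, TTK and UBE2C. The word TTTGAA of the CHR, searched on both strands, was in 32 of 53 windows (60.4%) and in at least 1 window of 29 of 41 genes (70.7%). It was in 15.2% of all 35116 RefSeq promoter windows and in 10.2% of the windows of the genes tested. The word CCAAT, also on both strands, was in 37 windows (69.8%) and 32 of 41 genes, against 34.6% of all windows. Both words together stood in 22 of 41 genes (53.7%), against 7.26% of all genes with a window. The words can overlap each other only by an end letter. A match of letters is a description and not a binding site. Only these spellings were searched, so a gene without the CHR word is not shown to lack a CHR.

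Of the windows, 8 are printed from 120 bases before to 30 bases after the start, 5′ to 3′ on the strand of the gene, with the words TTTGAA and CCAAT or their reverse complements TTCAAA and ATTGG in capitals. The first 4 hold both words, CENPA and BUB1B hold the CHR word in this stretch, CCNB1 holds CCAAT words but no CHR word, and KIF2C holds neither. KIF2C, CDC25C and CCNB1 are shown because they were at least 1.5-fold from control in a library, BUB1B because it lay beside that threshold, and the others as examples of the layout.
CCNB2, chr15:59105026-59105175, plus strand: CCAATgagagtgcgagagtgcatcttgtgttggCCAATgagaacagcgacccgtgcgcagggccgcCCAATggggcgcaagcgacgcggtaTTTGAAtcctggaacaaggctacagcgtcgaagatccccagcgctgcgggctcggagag
PLK1, chr16:23678769-23678918, plus strand: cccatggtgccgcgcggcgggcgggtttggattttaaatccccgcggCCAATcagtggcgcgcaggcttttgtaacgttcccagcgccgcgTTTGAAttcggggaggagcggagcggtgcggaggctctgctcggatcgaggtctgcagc
CDC25C, chr5:138331775-138331924, minus strand, 1 of its annotated starts: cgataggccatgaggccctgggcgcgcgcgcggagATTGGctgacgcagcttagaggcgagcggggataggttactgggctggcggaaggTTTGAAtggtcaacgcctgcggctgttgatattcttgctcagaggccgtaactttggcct
KIF11, chr10:92593010-92593159, plus strand: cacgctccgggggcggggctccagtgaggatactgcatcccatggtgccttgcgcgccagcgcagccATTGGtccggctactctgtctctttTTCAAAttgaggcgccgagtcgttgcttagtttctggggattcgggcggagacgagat
CENPA, chr2:26785936-26786085, plus strand: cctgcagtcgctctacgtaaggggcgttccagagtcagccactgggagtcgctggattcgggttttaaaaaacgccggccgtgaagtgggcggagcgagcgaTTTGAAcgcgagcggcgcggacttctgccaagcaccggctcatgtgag
BUB1B, chr15:40160949-40161098, plus strand: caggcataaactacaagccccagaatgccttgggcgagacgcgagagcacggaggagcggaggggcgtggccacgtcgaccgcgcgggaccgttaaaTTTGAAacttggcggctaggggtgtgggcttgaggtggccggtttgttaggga
CCNB1, chr5:69167030-69167179, plus strand: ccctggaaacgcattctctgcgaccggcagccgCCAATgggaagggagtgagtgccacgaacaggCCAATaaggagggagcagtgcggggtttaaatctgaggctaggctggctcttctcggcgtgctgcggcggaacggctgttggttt
KIF2C, chr1:44739717-44739866, plus strand: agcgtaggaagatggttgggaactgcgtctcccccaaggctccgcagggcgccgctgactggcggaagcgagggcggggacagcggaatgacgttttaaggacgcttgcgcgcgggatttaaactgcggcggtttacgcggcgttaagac
In CCNB2 and PLK1 the CHR word began 29 bases before the start, and in CCNB2 the 3 CCAAT words of this stretch were spaced at near-regular steps upstream of it, at 120, 87 and 54 bases before the start. KIF11 carried both words in the opposite orientation. Over all windows of the 41 genes, 43 CHR words were found with a median position 28 bases before the start, and 28 of them began within 50 bases of it. The 76 CCAAT words lay farther upstream, with a median of 78.5 bases before the start, and 53 of them began between 150 and 40 bases before it. Of the CHR words, 34 of 43 stood in the orientation of the gene, and of the CCAAT words 31 of 76. These counts and medians are of matches per window, so a word in overlapping windows of 1 gene, as in PTTG1, counts more than once.

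**Figure D1:**
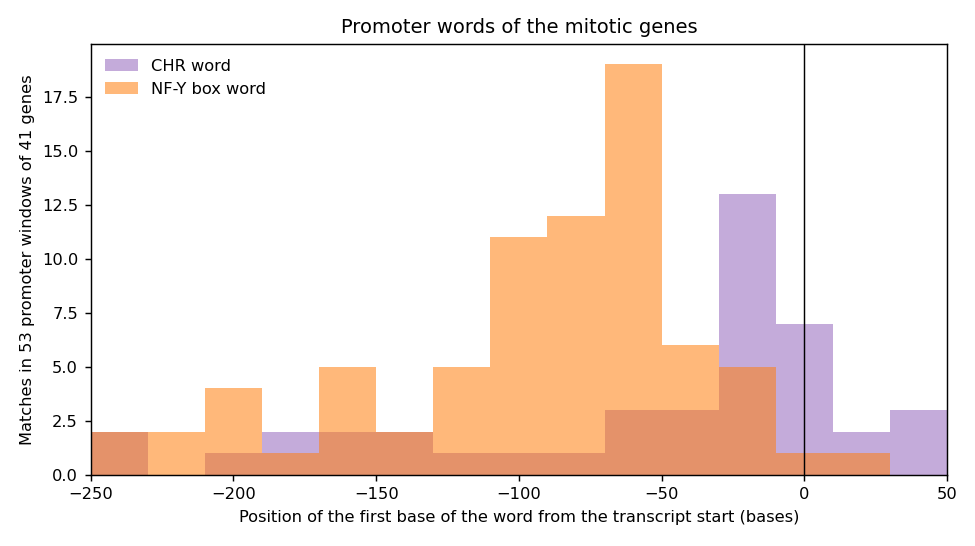
Positions of CHR words (purple) and CCAAT words (orange) in the 53 promoter windows of 41 mitotic genes, as the number of matches (vertical axis) by position of the first base from the transcript start in bases (horizontal axis). The CCAAT words gather upstream of the CHR words, whose median is 28 bases before the start.

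The share of genes with a CHR word differed between the role groups. All 5 spindle and cytokinesis genes with a window had it, but only 4 of 9 genes of mitotic entry, where AURKB, CCNA2, CCNB1, CDC25B and NEK2 had none. CENPE and KIF2C had neither word. Of 91 other mitosis genes listed beside the 48, 74 had a window and 35 of these (47.3%) a CHR word. Of 40 S phase genes, 36 had a window and 1 of these (2.78%) a CHR word, while 22 (61.1%) had a CCAAT word.

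By level in the control library, per kilobase of exon (GENCODE v29 union exons), CDC20 was the highest of the 48 at 137 CPM per kb, followed by CCNB1 at 92.2, TOP2A at 80.7, TPX2 at 78.6 and BIRC5 at 76.2 CPM per kb. CENPE at 1.59, KIF18A at 2.66 and TTK at 5.74 CPM per kb were the lowest. The anaphase activator and the main mitotic cyclin thus headed the order, and 2 motor proteins closed it. How reads shared by near-identical copies were counted is not known here, so such genes are uncertain. KIF4B, a close copy of KIF4A, stood at 0.0415 to 0.448 CPM against 71.4 to 88.1 CPM for KIF4A.

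With DNMT3B-L siRNA most of the mitotic genes were higher than with control siRNA. Of 48 genes, 42 were higher, where 52.8% of all genes tested were, and their median log2 ratio of CPM + 1 was 0.30 against 0.03 over all genes and 0.06 over the 8732 genes tested within the same range of average CPM. At least 1.5-fold higher were 6 genes, KIF2C, CDC25C, AURKA, CCNB1, NEK2 and NCAPH, where 4.6% of all genes tested were. None was at least 1.5-fold lower, where 7.3% of all genes were. The summed level of the 48 genes was 5769 CPM with control siRNA, 5882 and 6086 CPM with PTBP1 siRNA 1 and 2, and 6879 CPM with DNMT3B-L siRNA. In bulk RNA, more cells in the cell cycle phases that express these genes and more of these transcripts per cell cannot be told apart. With 1 library of each kind, these are differences between libraries. All ratios to control share the 1 control library. The DNMT3B-L library exceeded control by more than the 2 PTBP1 libraries differed from each other in 32 of 48 genes, where 25.1% of all genes did.

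**Figure D2:**
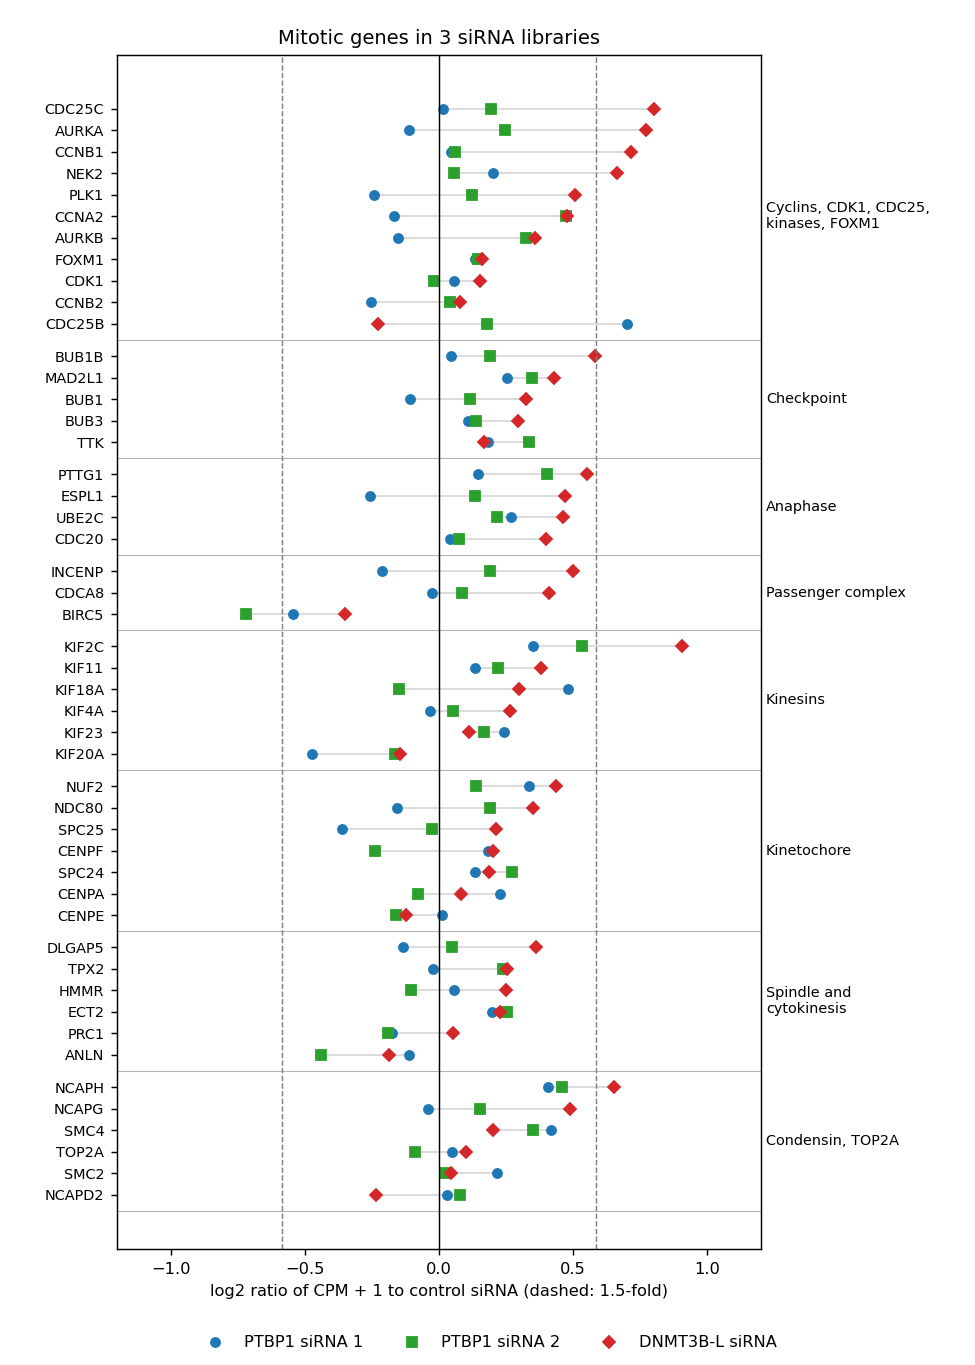
Log2 ratio of CPM + 1 to control siRNA (horizontal axis) of the 48 mitotic genes (vertical axis), grouped by role, for PTBP1 siRNA 1 (blue circles), PTBP1 siRNA 2 (green squares) and DNMT3B-L siRNA (red diamonds), with 1.5-fold marked by dashed lines. Red diamonds lie right of 0 for 42 genes and past the dashed line for 6, while BIRC5, KIF20A and ANLN lie left of 0 in all 3 libraries.

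Among the genes of mitotic entry the DNMT3B-L library was higher for 10 of 11, with a median log2 ratio of 0.48. CCNB1, cyclin B1, stood at 236 CPM with control siRNA, 244 and 246 CPM with PTBP1 siRNA 1 and 2, and 388 CPM with DNMT3B-L siRNA. The control and both PTBP1 libraries were close together and the DNMT3B-L library stood apart, at 1.64-fold the control (exact 95% interval of the CPM ratio 1.59 to 1.70, for counting error only, as for all such intervals). Its kinase partner CDK1 differed less between the libraries, at 78.1, 81.4, 77.2 and 86.9 CPM in the same order. CCNB2, cyclin B2, ranged from 56.9 to 72.0 CPM. CDC25C, a phosphatase that activates CDK1, stood at 23.0 CPM with control siRNA, 23.3 and 26.5 CPM with PTBP1 siRNA 1 and 2, and 40.9 CPM with DNMT3B-L siRNA. As for CCNB1, a single library was high, at 1.74-fold (interval 1.59 to 1.98). CDC25B, which also acts on CDK1 and earlier, went another way, with 275 CPM with control siRNA, 448 and 311 CPM with PTBP1 siRNA 1 and 2, and 235 CPM with DNMT3B-L siRNA. It was the only member of this group lower with DNMT3B-L siRNA than with control siRNA.

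AURKA, a kinase of centrosome maturation and spindle assembly, stood at 169 CPM with control siRNA, 157 and 201 CPM with PTBP1 siRNA 1 and 2, and 289.8 CPM with DNMT3B-L siRNA. The control library lay between the PTBP1 libraries, and DNMT3B-L siRNA was 1.71-fold above it (interval 1.65 to 1.78). PLK1, a kinase that acts from mitotic entry to cytokinesis, stood at 222, 188, 242 and 317 CPM in the order control, PTBP1 siRNA 1, PTBP1 siRNA 2 and DNMT3B-L siRNA, with the DNMT3B-L library again the highest at 1.42-fold. NEK2, a kinase of centrosome separation, stood at 48.1, 55.4, 50.1 and 76.8 CPM in the same order, and its DNMT3B-L library was 1.59-fold the control (interval 1.48 to 1.73). AURKB, the kinase of the chromosomal passenger complex, was higher with both DNMT3B-L siRNA and PTBP1 siRNA 2 (log2 ratios 0.36 and 0.33) and lower with PTBP1 siRNA 1 (-0.15). FOXM1, a transcription factor of this gene program, was nearly level, at 159 CPM with control siRNA, 174 and 175 CPM with PTBP1 siRNA 1 and 2, and 177 CPM with DNMT3B-L siRNA.

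**Figure D3:**
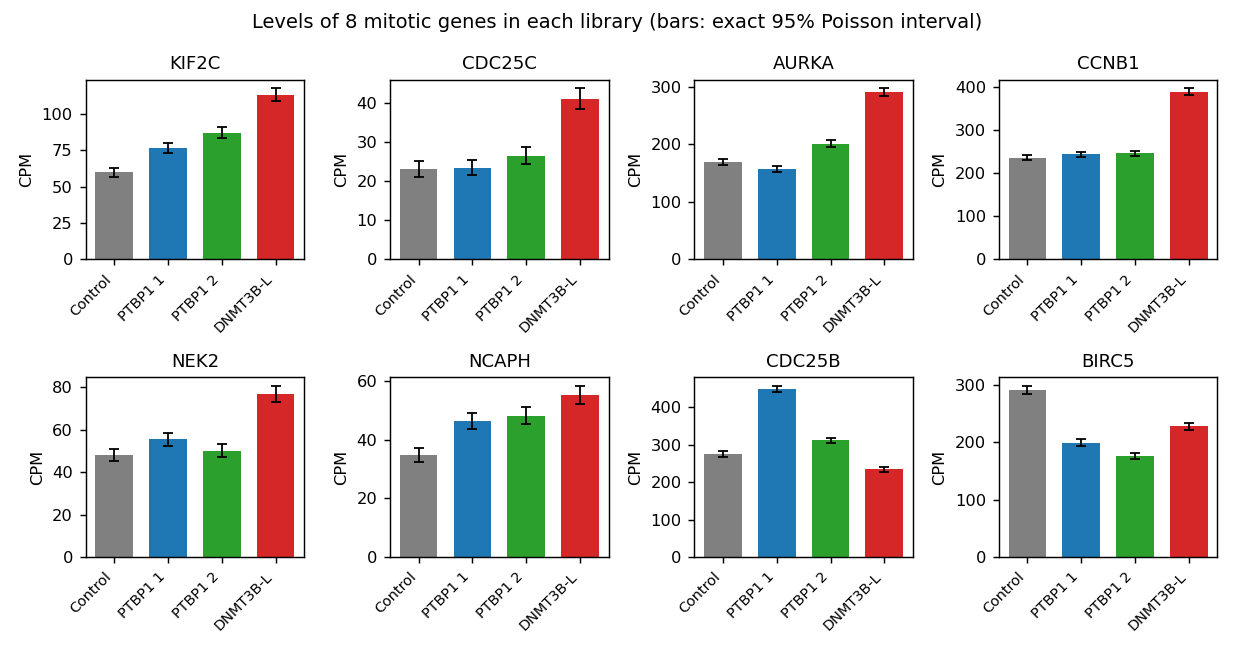
Level in CPM (vertical axis, from 0) of the 8 mitotic genes at least 1.5-fold from control in at least 1 library, in the control, PTBP1 siRNA 1, PTBP1 siRNA 2 and DNMT3B-L siRNA libraries (1 bar each, error bars exact 95% Poisson intervals for counting error only). DNMT3B-L siRNA has the tallest bar for KIF2C, CDC25C, AURKA, CCNB1, NEK2 and NCAPH, PTBP1 siRNA 1 for CDC25B and control for BIRC5.

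The checkpoint genes were all higher with DNMT3B-L siRNA (5 of 5, median log2 ratio 0.33), as were the anaphase genes (4 of 4, median 0.47). BUB1B, which encodes the checkpoint protein BUBR1, stood at 66.9 CPM with control siRNA, 69.2 and 76.5 CPM with PTBP1 siRNA 1 and 2, and 101 CPM with DNMT3B-L siRNA. The log2 ratio of 0.58 in that last library lay just under the 1.5-fold threshold, while that of NCAPH, the least of those above it, was 0.65. MAD2L1, which binds CDC20 when kinetochores are unattached, had log2 ratios of 0.25, 0.35 and 0.43 with PTBP1 siRNA 1, PTBP1 siRNA 2 and DNMT3B-L siRNA. All 3 were above control. The checkpoint kinase TTK was the exception in order, with 0.34 for PTBP1 siRNA 2 above 0.17 for DNMT3B-L siRNA. Among the anaphase genes, PTTG1 (securin, the inhibitor of separase) had a log2 ratio of 0.55 with DNMT3B-L siRNA, ESPL1 (separase) 0.47, UBE2C (a ubiquitin-conjugating enzyme of the anaphase-promoting complex) 0.46 and CDC20 0.40. These 4 genes thus lay within a narrow range in that library, whereas with PTBP1 siRNA 1 they ran from -0.26 for ESPL1 to 0.27 for UBE2C.

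The 3 chromosomal passenger subunits were all below control with PTBP1 siRNA 1. With PTBP1 siRNA 2 and DNMT3B-L siRNA they did not share a direction. INCENP, the scaffold, had log2 ratios of -0.21, 0.19 and 0.50 with PTBP1 siRNA 1, PTBP1 siRNA 2 and DNMT3B-L siRNA. CDCA8 (borealin) had -0.03, 0.085 and 0.41 in the same order. BIRC5 (survivin), which brings the complex to centromeres, stood at 291 CPM with control siRNA, 199 and 176 CPM with PTBP1 siRNA 1 and 2, and 228 CPM with DNMT3B-L siRNA. All 3 siRNA libraries were below control. The fold was 0.69 with PTBP1 siRNA 1 (interval 0.66 to 0.71), 0.61 with PTBP1 siRNA 2 (0.58 to 0.63) and 0.78 with DNMT3B-L siRNA (0.76 to 0.81).

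Of the 6 kinesins, 5 were higher with DNMT3B-L siRNA (median log2 ratio 0.28). KIF2C, a microtubule depolymerase that corrects wrong attachments, stood at 59.9 CPM with control siRNA, 76.6 and 87.1 CPM with PTBP1 siRNA 1 and 2, and 113 CPM with DNMT3B-L siRNA. It was above control in all 3 siRNA libraries, and its 1.88-fold with DNMT3B-L siRNA was the largest ratio of the 48 genes (interval 1.77 to 2.02). KIF11, the motor that pushes the spindle poles apart, stood at 73.3, 80.7, 85.6 and 95.8 CPM in the order control, PTBP1 siRNA 1, PTBP1 siRNA 2 and DNMT3B-L siRNA, with the same order of libraries as KIF2C but smaller differences. KIF20A, a motor of the central spindle in cytokinesis, went the other way, at log2 ratios of -0.47, -0.16 and -0.14. KIF23, another motor of that structure, was above control in all 3 libraries, from 0.11 to 0.25. KIF18A, a motor that dampens chromosome movement, was low in level and differed in sign between the PTBP1 libraries (0.48 and -0.15).

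The kinetochore genes had a smaller median, 0.20, with 6 of 7 higher with DNMT3B-L siRNA. NDC80, the subunit that binds microtubules, stood at 61.6 CPM with control siRNA, 55.2 and 70.4 CPM with PTBP1 siRNA 1 and 2, and 78.8 CPM with DNMT3B-L siRNA. The control library again lay between the PTBP1 libraries. The other subunits of its complex, NUF2, SPC24 and SPC25, had log2 ratios of 0.44, 0.19 and 0.21 with DNMT3B-L siRNA, so all 4 subunits were above control there. With PTBP1 siRNA 1, NDC80 and SPC25 were below control (-0.16 and -0.36) and NUF2 and SPC24 above (0.34 and 0.14). CENPA, the histone of centromeres, had a log2 ratio of 0.08 with DNMT3B-L siRNA, and the large proteins CENPF and CENPE, a scaffold and a motor, 0.20 and -0.12.

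Spindle and cytokinesis genes (5 of 6 higher with DNMT3B-L siRNA, median 0.24) ran from DLGAP5, a microtubule-bundling protein, at 0.36, and TPX2, the activator of AURKA, at 0.26, through HMMR at 0.25, ECT2 at 0.23 and PRC1 at 0.05 to ANLN at -0.19. ANLN (anillin), a scaffold of the contractile ring, was below control in all 3 libraries, most with PTBP1 siRNA 2 (-0.44). Condensin and topoisomerase genes had the smallest median of the groups, 0.15. NCAPH, the kleisin subunit of condensin I, stood at 34.6 CPM with control siRNA, 46.3 and 48.0 CPM with PTBP1 siRNA 1 and 2, and 55.03 CPM with DNMT3B-L siRNA. All 3 siRNA libraries were above control, DNMT3B-L siRNA by 1.57-fold (interval 1.45 to 1.74). NCAPD2, another subunit of the same complex, was below control with DNMT3B-L siRNA (-0.23). NCAPG, SMC4 and SMC2 were above it (0.49, 0.20 and 0.05), so NCAPD2 was the only condensin gene listed that was lower there. SMC4 had larger ratios with PTBP1 siRNA 1 and 2 (0.42 and 0.35). TOP2A, topoisomerase II alpha, differed little, at 519.6 CPM with control siRNA, 538 and 488 CPM with PTBP1 siRNA 1 and 2, and 558 CPM with DNMT3B-L siRNA.

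**Figure D4:**
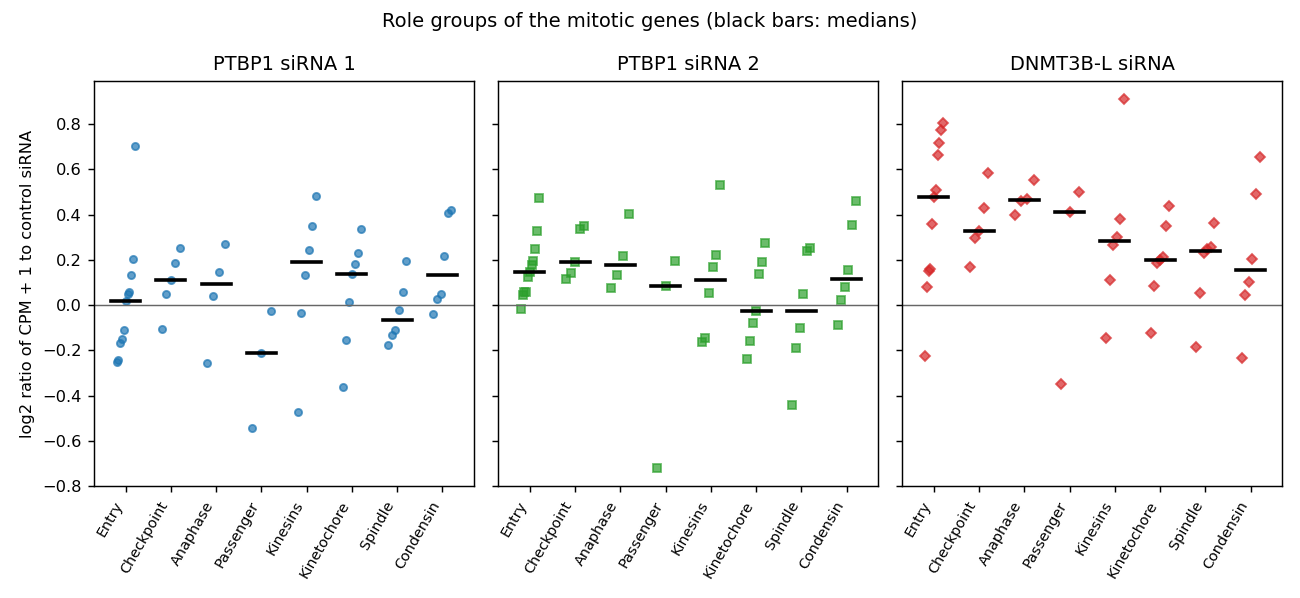
Log2 ratio of CPM + 1 to control siRNA (vertical axis) of each mitotic gene by role group (horizontal axis; entry, checkpoint, anaphase, passenger, kinesins, kinetochore, spindle and cytokinesis, condensin with TOP2A) in each siRNA library (1 panel each), with group medians as black bars. In the DNMT3B-L panel all medians lie above 0, from 0.15 for condensin with TOP2A to 0.48 for entry.

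With PTBP1 siRNA the mitotic genes lay nearer to control. Higher than control were 29 of 48 genes with PTBP1 siRNA 1, where 50.2% of all genes were, and 36 of 48 with PTBP1 siRNA 2, where 50.4% were. The median log2 ratios were 0.05 and 0.14. At least 1.5-fold higher with PTBP1 siRNA 1 was CDC25B (4.52% of all genes) and none was lower (7.36% of all genes). With PTBP1 siRNA 2 none was at least 1.5-fold higher (4.08% of all genes) and BIRC5 was lower (8.19% of all genes). Both PTBP1 libraries were above control for 22 of 48 genes, where 30.4% of all genes tested were, and below it for 5 (ANLN, BIRC5, KIF20A, PRC1 and SPC25), where 29.8% of all genes were. Absolute differences between the PTBP1 libraries had a median of 0.18 on the log2 scale among the 48 genes and 0.27 among all genes tested.

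The 2 PTBP1 siRNAs differed from each other by at least 1.5-fold for 2 genes. CCNA2, cyclin A2, which acts in S phase and at mitotic entry, stood at 96.5 CPM with control siRNA, 85.9 and 134 CPM with PTBP1 siRNA 1 and 2, and 135 CPM with DNMT3B-L siRNA. It was lower with PTBP1 siRNA 1 than with PTBP1 siRNA 2, as were 7.92% of all genes by this fold, and the latter was level with DNMT3B-L siRNA. KIF18A stood at 12.4 CPM with control siRNA, 17.8 and 11.1 CPM with PTBP1 siRNA 1 and 2, and 15.5 CPM with DNMT3B-L siRNA, so that it was higher with PTBP1 siRNA 1, as were 9.18% of all genes. For these 2 genes the 2 siRNAs against the same target fell on opposite sides of control. This was not particular to them. It held for every mitotic gene outside the 22 above and 5 below control in both PTBP1 libraries, AURKA, PLK1 and NDC80 among them. Among all genes tested it held for those outside the 30.4% above and 29.8% below.

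No mitotic gene passed the test across all genes. In limma (adjusted p under 0.05 over 14942 genes), 0 of 48 genes passed for PTBP1 siRNA against control siRNA, where 0.00669% of all genes did, 0 for DNMT3B-L siRNA against control siRNA, where 0% did, and 0 for PTBP1 siRNA against DNMT3B-L siRNA, where 0.00669% did. At an unadjusted p under 0.05 in limma the counts of mitotic genes were 0, 2 and 2, and those of all genes 396, 457 and 796. KIF2C had a log2 change of 0.91 with DNMT3B-L siRNA (SE 0.36, limma adjusted p = 0.998), and AURKA one of 0.77 (SE 0.36, limma adjusted p = 0.998). BIRC5, lower in 2 of 2 PTBP1 libraries, had a log2 change of -0.63 (SE 0.30, limma adjusted p = 1.0). The spread in this fit comes from the difference between the 2 PTBP1 libraries, and the control and DNMT3B-L libraries are taken to vary as these do. The edgeR and DESeq2 tests on recovered read pairs also passed 0 of 48 genes in each comparison.

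Set directly against each other, both PTBP1 libraries were below the DNMT3B-L library for 36 of 48 genes, where 36.2% of all genes tested were, and above it for 5 (CDC25B, KIF23, NCAPD2, SMC4 and TTK), where 31.4% of all genes were. AURKA had a log2 change of -0.71 with PTBP1 siRNA against DNMT3B-L siRNA (SE 0.31, limma adjusted p = 0.918). CCNB1 had a change of -0.66 (SE 0.29, limma adjusted p = 0.919). Both were lower in 2 of 2 PTBP1 libraries, with a gap from the DNMT3B-L library larger than the difference between the PTBP1 libraries. CDC25B went the other way, with a mean log2 difference of 0.67.

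The 91 other mitosis genes, chosen by function with earlier results of these data known, lay close to the 48 in each library. Their median log2 ratios were 0.06 and 0.11 with PTBP1 siRNA 1 and 2 and 0.30 with DNMT3B-L siRNA, and 58, 56 and 78 of 91 were above control. None passed limma in any of the 3 comparisons. The 40 S phase genes were also above control with DNMT3B-L siRNA (35 of 40, median 0.31). With PTBP1 siRNA 1 the S phase genes had a median of 0.21 and 35 of 40 above control, but with PTBP1 siRNA 2 a median of -0.01 and 20 of 40. The 2 siRNAs against PTBP1 thus parted more in S phase genes than in the mitotic genes by these medians, a difference that was not tested. Gene by gene, S phase genes did not stand apart. The median absolute log2 difference between the PTBP1 libraries was 0.288 for them and 0.292 for the 91 other mitosis genes. It was 0.267 for all genes tested and 0.176 for the 48.

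**Figure D5:**
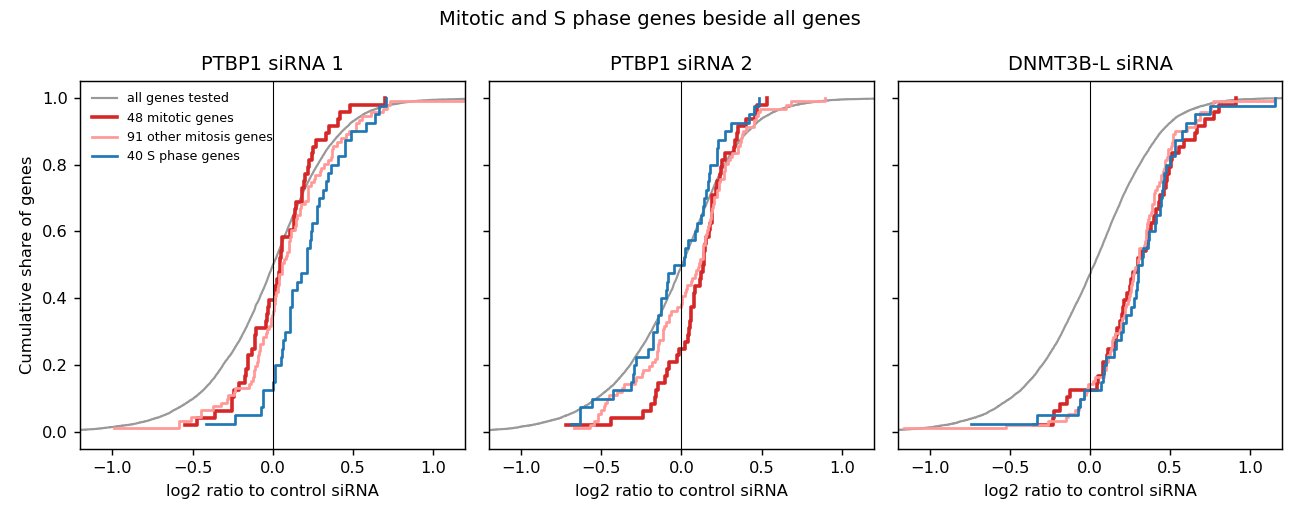
Cumulative share of genes (vertical axis) by log2 ratio of CPM + 1 to control siRNA (horizontal axis) for the 48 mitotic genes (red), 91 other mitosis genes (pink), 40 S phase genes (blue) and all genes tested (grey), 1 panel per siRNA library. With DNMT3B-L siRNA all 3 lists lie right of all genes, with medians of 0.30, 0.30 and 0.31 against 0.03.

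In these lists, 3 genes with an average of at least 5 CPM were at least 2-fold from control in a library. CDC25A, a phosphatase of the G1 to S transition and of mitotic entry, stood at 42.2 CPM with control siRNA, 111 and 79.5 CPM with PTBP1 siRNA 1 and 2, and 94.9 CPM with DNMT3B-L siRNA, so all 3 siRNA libraries were above control. RRM2, a subunit of ribonucleotide reductase, stood at 126 CPM with control siRNA, 127 and 137 CPM with PTBP1 siRNA 1 and 2, and 281 CPM with DNMT3B-L siRNA, which alone was high. MYBL2, the MuvB partner named above, stood at 219 CPM with control siRNA, 295 and 241 CPM with PTBP1 siRNA 1 and 2, and 97.3 CPM with DNMT3B-L siRNA. It was lowest in the library where the summed level of the mitotic genes was highest, and its part in that difference was not tested. Mitotic genes were also split by the CHR word, with libraries in the order PTBP1 siRNA 1, PTBP1 siRNA 2 and DNMT3B-L siRNA. The 29 with the word had median log2 ratios of 0.04, 0.08 and 0.27, and the 12 without it 0.09, 0.23 and 0.42. This split is by the letters TTTGAA alone, and the 7 genes with no window, AURKA among them, are in neither set. The ranges of these sets overlapped with DNMT3B-L siRNA, at -0.23 to 0.80 with the word and -0.23 to 0.91 without it.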

How the data were processed

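RNA-seq of 4 DU145 libraries was analysed, with groups taken from the sample titles. Per the submitters' processing notes, the tools were HISAT2 2.1.0, HTSeq 0.6.1 and bcl2fastq 2.19.1 and the build hg19 (GRCh37). The authors deposited CPM per gene, 1 table per library, and how genes were kept is not given in the sources used. Within 0.001, 1 read pair divided the deposited CPM evenly for 98.99% to 99.2% of values, and the rest, 176 to 223 per library, lay below the value of 1 read pair and were taken as 0 reads. The CPM were tested with limma 3.58.1 (trend option, R 4.3.3) on log2(CPM + 1) for the 14942 genes that reached 1 CPM in any library, in 1 fit of all 4 libraries, with Benjamini-Hochberg adjustment. The fit had 1 residual and 11.5 prior degrees of freedom. The pseudocount of 1 makes changes of low genes look smaller than they were. On the recovered read pairs, edgeR 4.0.16 with TMM factors passed 0, 0 and 1 genes for PTBP1 siRNA against control siRNA, DNMT3B-L siRNA against control siRNA and PTBP1 siRNA against DNMT3B-L siRNA, and DESeq2 1.42.0 passed 2, 1 and 4. Single libraries were compared as ratios of CPM + 1 with no test, and exact 95% intervals (of Poisson counts, or of a ratio of counts) leave out all but counting error.

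The members, the 2 other gene lists and their role groups were chosen with earlier results of these data known. Values per library are given for members at least 1.5-fold from control in at least 1 library and for CCNB1, CDK1, AURKA, PLK1, FOXM1, TOP2A, BUB1B, NDC80 and KIF11. From the other lists the genes with an average CPM of at least 5 that were at least 2-fold from control are named. CCNA2 and KIF18A were named after their values were seen, for the difference between the PTBP1 siRNAs. Alternatives were pseudocounts of 0.1 and 5, no filter, an average CPM of at least 5, quantile normalization, TMM factors, edgeR, DESeq2, a 2-fold threshold and leaving out each PTBP1 library. Some marker genes are not reported here.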

Additional observations from a re-analysis of the deposited data

How the results depend on the processing

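No mitotic gene passed the adjusted threshold under any pseudocount, filter, normalization or tool run (limma, edgeR, DESeq2). With a 2-fold threshold in place of 1.5-fold, the counts of 6 genes with DNMT3B-L siRNA, 1 with PTBP1 siRNA 1, 1 with PTBP1 siRNA 2 and 2 between the PTBP1 libraries each became 0. With a pseudocount of 5 the 2 genes between the PTBP1 libraries became 1, since a larger pseudocount shrinks the ratio of a low gene such as KIF18A, and with 0.1 the 6 genes with DNMT3B-L siRNA became 7, BUB1B included. The median log2 ratio of the 48 genes for the mean of the PTBP1 libraries, 0.072, ran from 0.047 to 0.137 when either library was left out. Without a PTBP1 library the fit has no spread to estimate, so no test was run. Among 576 ratios of single genes under the alternatives, 2 changed sign, and none of those was at least 1.5-fold from control. The counts of genes above control under the other pseudocounts and scalings were 28 or 29 with PTBP1 siRNA 1, 36 or 37 with PTBP1 siRNA 2 and 42 with DNMT3B-L siRNA. No paired analysis was possible because the control and DNMT3B-L groups have 1 library each and share fewer than 2 replicate numbers with the PTBP1 group. The spread between transfections was not measured for control or DNMT3B-L siRNA, so depth covers only part of the error.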
